A study of Arabidopsis thaliana with 3 samples.

Results

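Chromosome 1 of the plant Arabidopsis thaliana carried 374 of the 1990 variant sites listed for a bulked segregant experiment at which the change, read from the base called in the wild-type library WTa to the other base, was G-to-A or C-to-T. They were selected by chromosome and by the listed bases, without use of any read count of the pools. Of the 374 sites, 342 were G-to-A and 32 were C-to-T. The experiment sequenced leaf DNA of 3 libraries, to map the mutation thm1: the thm1_like pool (genotype label thm1 mutant, library T4), the WTa_like pool (genotype label WT, library T2) and WTa itself (genotype label WT). Plants per pool, cross and mutagen: not given in the sources used here. With a single library per pool there is no replicate check of any value, and every test on reads compares these 2 libraries and not the phenotypes. All 3 libraries were made alike from sheared leaf DNA with a limited number of PCR cycles. Positions are on the TAIR10 build.

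In bulked segregant analysis, plants of a segregating family are sorted by phenotype and each pool is sequenced as a whole. At a site linked to a recessive causal mutation the mutant pool approaches fixation for the linked allele, and at an unlinked site both pools are expected to carry it at the same frequency. Alkylating mutagens such as ethyl methanesulfonate modify guanine, which leaves G-to-A changes, or C-to-T when the modified guanine was on the opposite strand, and such changes serve as markers along the chromosome. For each pool the SNP-index is the share of reads that carry the base WTa does not carry. Delta, recomputed here from the read counts, is the index of thm1_like less that of WTa_like.

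Depth at the 374 sites averaged 26.2 reads in thm1_like (SD 12.6 over sites, range 7 to 78) and 24.3 reads in WTa_like (SD 10.8, range 7 to 84). WTa had a median of 13 reads (range 2 to 43) and fewer than 5 reads at 11 sites, where the direction of the change rests on those reads. With 24 reads, the median of thm1_like, the exact 95% interval (Clopper-Pearson) around 0.5 runs from 0.291 to 0.709. With 22 reads, the median of WTa_like, finding no such read still permits a share up to 13.6%. These intervals cover counting error only, and reads without molecular identifiers are not independent molecules. The table lists no nuclear site at which both pools have an index below 0.3, as rounded there. A site with a low index in 1 pool is therefore listed only if the other pool was higher.

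The 2 pools leaned in opposite directions in different parts of the chromosome. In the middle, here 10 to 20 Mb, the 146 sites had an average index of 0.519 in thm1_like (SD 0.142 over sites) and 0.268 in WTa_like (SD 0.117). Their mean delta was 0.251 (SD 0.208), and 126 were higher and 20 lower in thm1_like. In the distal arm, from 25 Mb to the last site at 30349780, the order was turned round. The 58 sites there had an average index of 0.285 in thm1_like (SD 0.108) and 0.509 in WTa_like (SD 0.100), with a mean delta of -0.224 (SD 0.163), and 6 were higher and 52 lower in thm1_like. Over the first 10 Mb the pools were level: the 132 sites had mean indices of 0.409 in thm1_like and 0.407 in WTa_like, with a mean delta of 0.00234 (SD 0.198) and 66 sites higher against 64 lower. Among all nuclear sites of the table, 54.1% had a delta above 0 and 45.2% a delta below 0, and among nuclear sites of the same classes of change 61.8% and 37.5% did.

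**Figure D1:**
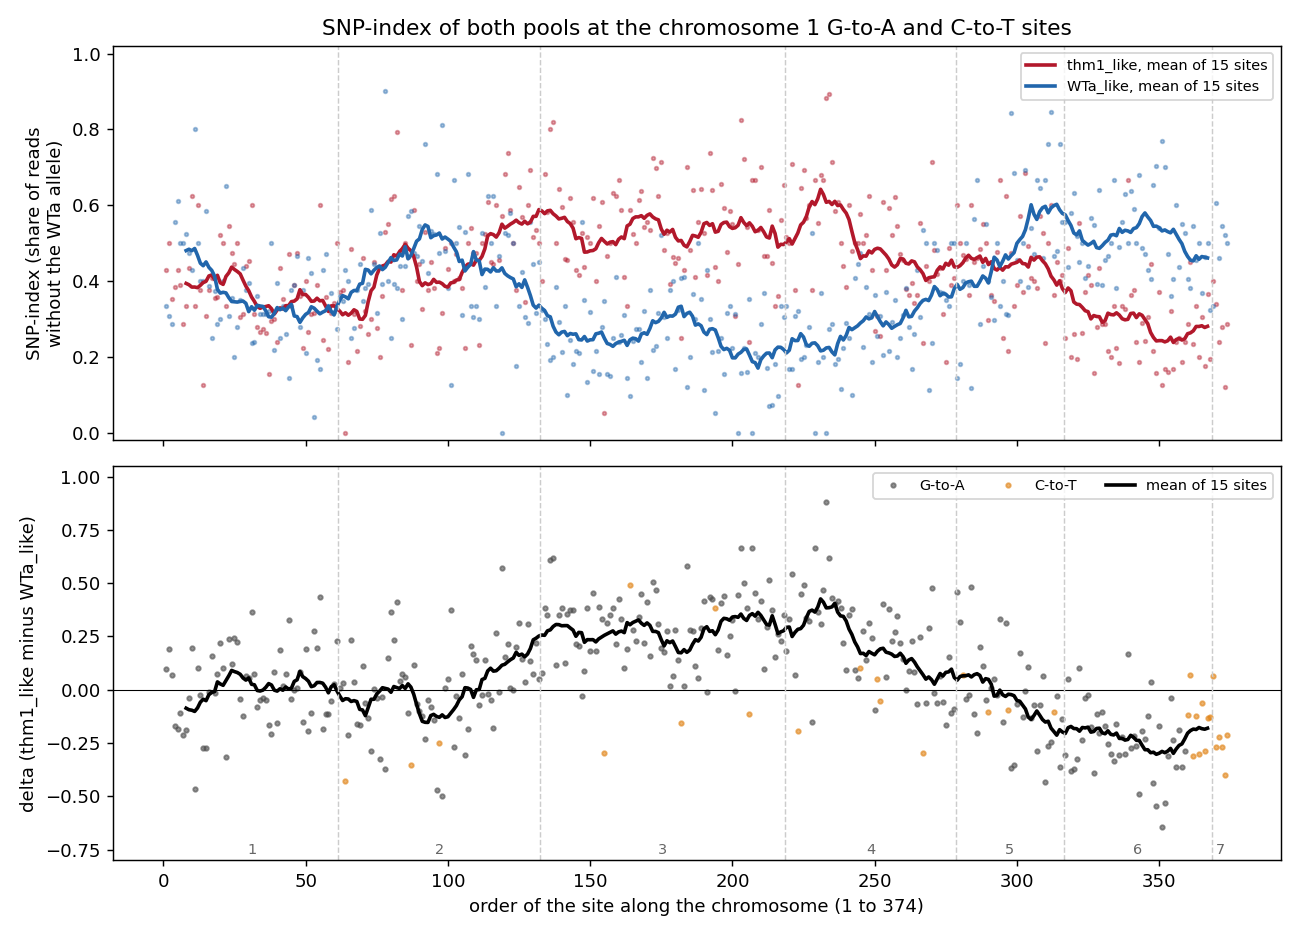
Upper panel: SNP-index of the thm1_like pool (red) and the WTa_like pool (blue) at each of the 374 sites (points), with running means of 15 sites (lines), against the order of the site along the chromosome. Lower panel: delta of G-to-A (grey) and C-to-T (orange) sites with its running mean, and dashed lines between the 7 numbered segments of 5 Mb. The lines lie together at the start, the thm1_like line is above in segments 3 and 4, and the WTa_like line is above in segments 6 and 7.

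The mean of both pools' indices was 0.394 in the middle, 0.397 in the distal arm, 0.408 over the first 10 Mb and 0.469 from 20 to 25 Mb. Within the first 10 Mb it was 0.370 in the first segment of 5 Mb and 0.441 in the second. The interquartile range of the thm1_like index ran from 0.429 to 0.620 in the middle and from 0.20 to 0.338 in the distal arm, with no overlap. That of the WTa_like index ran from 0.193 to 0.344 in the middle and from 0.438 to 0.563 in the distal arm. Values of 0.5 or more occurred in thm1_like at 85 of the 146 middle sites and 2 of the 58 distal ones, and in WTa_like at 9 of the 146 and 32 of the 58. The highest thm1_like index of the 374 sites was 0.893, below 0.9, whereas the WTa_like pool reached 0.9 at 1 site, in AT1G17450 (9 of 17 against 9 of 10 reads at 5994454, delta -0.371).

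The listing limit of 0.3 bears on the size of these means. In the middle, 85 sites reached 0.3 in thm1_like alone, 8 in WTa_like alone and 53 in both. In the distal arm no site reached it in thm1_like alone, 36 did in WTa_like alone and 22 in both. Sites that reached it in 1 pool alone had to differ in that direction. Over the sites at or above the limit in both pools, a choice made after seeing the data, the mean delta was 0.120 in the middle (SD 0.134, 41 higher and 12 lower) and -0.101 in the distal arm (SD 0.143, 6 higher and 16 lower). The directions were as over all sites and the sizes were smaller by over 1.5 times. Over the first 10 Mb the sites listed through 1 pool alone were balanced, 24 through the thm1_like pool and 25 through the WTa_like pool.

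**Figure D2:**
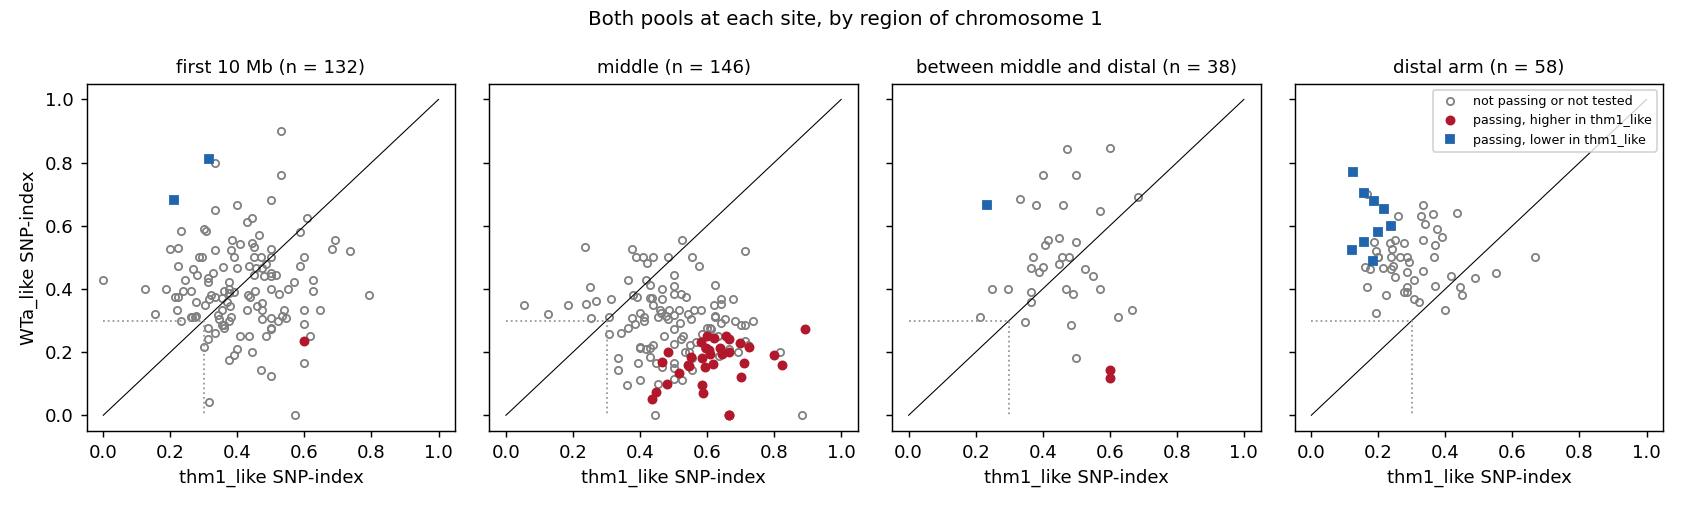
Thm1_like index (horizontal axis) against WTa_like index (vertical axis) of each site in 4 regions; filled symbols passed the adjusted threshold of 0.05 and the dotted corner marks the area below 0.3 in both pools, where the table lists no site. Most sites of the middle lie below the diagonal and most sites of the distal arm above it, where 52 of 58 are lower in thm1_like.

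Single sites covered by 10 or more reads in each pool were tested by Fisher's exact test on the reads, two-sided, and p-values were adjusted over all tested sites of the table (Benjamini-Hochberg). Of the 347 tested sites of chromosome 1, 37 passed 0.05 as higher in thm1_like (10.7%) and 12 as lower (3.46%). Among all 1816 tested nuclear sites the shares were 8.2% and 4.41% (12.6% in either direction), and among the 1253 of the same classes of change 11.1% and 2.63% (13.7%). Over the whole chromosome the counts were thus near the background. Their places were not spread evenly. The middle held 34 of the 37 higher sites and none of the lower, 25% of its 136 tested sites, and the distal arm held 9 of the 12 lower sites and none of the higher, 16.1% of its 56 tested sites. All 34 were listed through thm1_like alone (77 tested) and all 9 through WTa_like alone (35 tested), so these sites are listed only because they differed in that direction. Among sites at 0.3 or more in both pools, 0 of 51 tested in the middle and 0 of 21 in the distal arm passed by Fisher's exact test. At an unadjusted p under 0.05 these were 7 higher sites in the middle and 2 lower sites in the distal arm. Neither region's share that passed is therefore support beyond the listing limit. Of the 49 sites that passed, 25 lay outside annotated gene bounds (121 tested), 15 within protein-coding genes (190 tested) and 9 in pseudogenes (32 tested). The part of region and depth in these counts was not tested. Without the 90 sites deeper than 1.5 times the members' median depth, an alternative chosen after seeing the data, 20 higher and 6 lower sites passed.

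**Figure D3:**
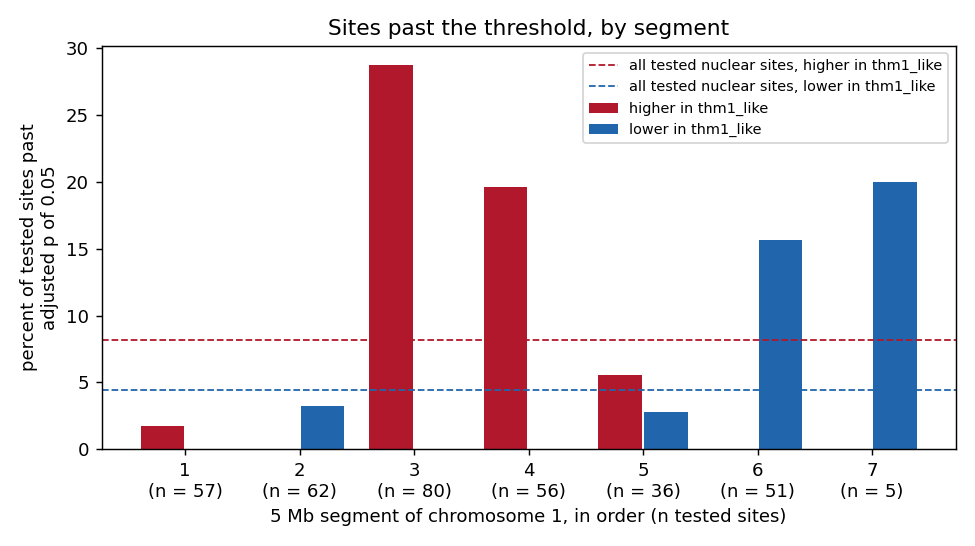
Percent of tested sites that passed an adjusted p of 0.05 in each 5 Mb segment, higher (red) or lower (blue) in thm1_like, with dashed lines at the shares among all tested nuclear sites (8.2% and 4.41%). Segments 3 and 4 exceed the higher line and segments 6 and 7 the lower line; segment 7 has only 5 tested sites.

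The course along the chromosome is given first in segments of 5 Mb. The first 2 segments had mean deltas of 0.00875 (SD 0.180, 61 sites) and -0.00316 (SD 0.214, 71 sites). From 10 to 15 Mb the mean was 0.284 (SD 0.182, 86 sites, 80 of them higher in thm1_like) and from 15 to 20 Mb it was 0.204 (SD 0.235, 60 sites, 46 higher). The next segment, 20 to 25 Mb, was close to 0 at -0.0311 (SD 0.220, 38 sites). From 25 to 30 Mb the mean was -0.224 (SD 0.166, 52 sites, 47 lower) and the short last segment had -0.218 (SD 0.155, 6 sites, 5 lower). The SDs over sites include the counting error of the reads, and linked sites are not independent, so no test was made between segments.

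**Figure D4:**
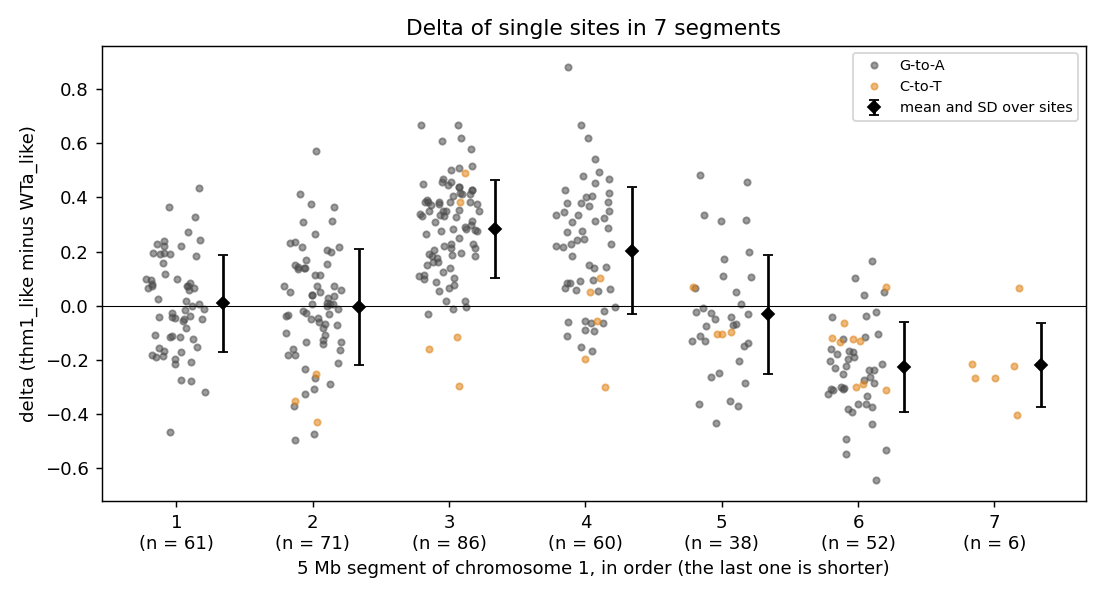
Delta of each site in 7 successive segments of 5 Mb, G-to-A in grey and C-to-T in orange, with the mean and SD over sites as black diamonds and bars. Means are near 0 in segments 1, 2 and 5, 0.284 and 0.204 in segments 3 and 4, and -0.224 and -0.218 in segments 6 and 7.

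At a scale of 1 Mb the lean of the middle began before 10 Mb and had shrunk before 20 Mb. Mean delta was -0.136 from 7 to 8 Mb (12 sites), 0.0993 from 8 to 9 Mb (13 sites), 0.142 from 9 to 10 Mb (12 sites) and 0.287 from 10 to 11 Mb (16 sites). It then stayed between 0.243 and 0.328 in each megabase up to 17 Mb. From 17 to 18 Mb it was 0.197 (12 sites), from 18 to 19 Mb 0.0527 (8 sites) and from 19 to 20 Mb 0.0382 (11 sites), so the last 2 Mb of the region called the middle differed little between the pools. All 14 megabases from 8 to 22 Mb had a mean above 0, and all 8 from 22 Mb on with at least 5 sites had a mean below 0. The lowest was -0.306 from 28 to 29 Mb (14 sites, 13 lower and 5 of them past the threshold).

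A running mean of 15 consecutive sites placed the extremes at 15488165 to 16180066 and 27835665 to 28967523. In the upper stretch the mean index was 0.642 in thm1_like (SD 0.132) and 0.215 in WTa_like (SD 0.131), with 14 of 15 sites higher. In the lower stretch it was 0.242 in thm1_like (SD 0.0897) and 0.545 in WTa_like (SD 0.130), with 14 of 15 sites lower. Both stretches were picked by their delta, so these values describe extremes. In the upper stretch 13 sites had a WTa_like index below 0.3, and in the lower stretch 11 had a thm1_like index below 0.3. Such sites were listed through the other pool alone. The running mean changed sign repeatedly up to the step from 8285913 to 8345403, was above 0 after it, and last changed sign between 21456038 and 21574868. The longest unbroken series of sites higher in thm1_like had 26 members, from 11257208 to 12915891, and the longest of lower sites had 16, from 25719389 to 27692029. The listing limit fixed many of these signs. In the first series 16 sites had a WTa_like index below 0.3, and in the second 9 had a thm1_like index below 0.3.

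The genes that held sites differed in kind along the chromosome. Annotated protein-coding bounds held 208 of the 374 sites, pseudogenes 35, other genes 5, and 126 lay outside gene bounds. In the middle, which includes the gene-poor surroundings of the centromere, 48 of 146 sites lay in protein-coding genes (32.9%), 31 in pseudogenes and 64 outside genes, whereas 38 of 58 distal sites (65.5%) and 100 of 132 sites of the first 10 Mb (75.8%) lay in protein-coding genes. The lean of the middle occurred in each kind of place. Mean delta was 0.218 for protein-coding sites (SD 0.182, 41 of 48 higher), 0.341 for pseudogene sites (SD 0.202, 30 of 31 higher) and 0.234 outside genes (SD 0.223, 52 of 64 higher). In the distal arm it was -0.207 in protein-coding genes (SD 0.173, 33 of 38 lower) and -0.256 outside genes (SD 0.142, 19 of 20 lower). In the middle the WTa_like index was below 0.3 at 25 of 48 protein-coding, 23 of 31 pseudogene and 35 of 64 outside sites. The thm1_like index was below 0.3 there at 1, 0 and 7. In the distal arm the thm1_like index was below 0.3 at 21 of 38 and 15 of 20, and the WTa_like index at none. Such sites were listed through the other pool alone and had to differ in that direction. Mean depth outside genes in the middle was 33.1 reads in thm1_like and 28.1 in WTa_like, against 24.2 in both pools at its protein-coding sites, and the part of depth in the number of sites that passed was not tested.

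Among the 8 middle sites of largest delta that passed the test, 1 lay in a protein-coding gene. PUB17, a U-box ubiquitin ligase that acts in defence, had 8 of 10 thm1_like reads and 5 of 26 WTa_like reads without the WTa base at 10266359 (delta 0.608, adjusted p = 0.0194, exact test). Pseudogenes held 3 of the 8. AT1G42450 had 14 of 21 against 0 of 12 reads at 15912335 (delta 0.667, adjusted p = 0.00474, exact test), where 0 of 12 reads permits up to 25%. AT1G40101 had 22 of 31 against 4 of 24 reads at 15075085 (delta 0.543, adjusted p = 0.00348, exact test). AT1G42655 carried 2 sites 109 bp apart: 16036102 with 25 of 28 against 3 of 11 reads (delta 0.620, adjusted p = 0.00823, exact test), and the untested 16035993, with 15 of 17 against 0 of 7 reads (delta 0.882). Position 13907881, 3256 bp from AT1G36745, also had no such WTa_like read, with 4 of 9 against 0 of 7 reads.

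The other 4 lay outside gene bounds, and distances are to the nearest protein-coding gene. Position 14098965 had 10 of 15 thm1_like reads and 0 of 16 WTa_like reads (delta 0.667, adjusted p = 0.00267, exact test) at 37448 bp from AT1G37113, and 0 of 16 reads permits up to 18.8%. Position 13939483 had 14 of 17 against 3 of 19 reads (delta 0.666, adjusted p = 0.00425, exact test) at 21667 bp from AT1G36756. Position 14311735 had 20 of 34 against 2 of 28 reads (delta 0.517, adjusted p = 0.000928, exact test) at 15482 bp from AT1G38131. Position 13153404, with 14 of 20 against 4 of 33 reads (delta 0.579, adjusted p = 0.00183, exact test), was 179 bp from AT1G35617. These sites were ranked by the values that are printed here, so their sizes describe the upper end of the region and not its typical site.

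The protein-coding sites of the middle with a gene symbol numbered 21, all G-to-A, with a median delta of 0.227, 17 higher and 4 lower. Of these, 14 had a WTa_like index below 0.3 and were listed through thm1_like alone. Among the 19 tested, 4 passed as higher (21.1%), near the 25% of the whole middle, where 8.2% of all tested nuclear sites did. Among all nuclear sites the median delta was 0.0385. Besides PUB17, those that passed were AGO3, an Argonaute protein of small RNA pathways (11188456, 18 of 33 against 7 of 45 reads), LrgB, a plastid membrane protein (11538911, 32 of 48 against 6 of 25 reads, delta 0.427, adjusted p = 0.0174, exact test), and UBC31, a ubiquitin-conjugating enzyme (13684674, 16 of 27 against 4 of 26 reads, delta 0.439, adjusted p = 0.0212, exact test). Passing depends on depth as well as on delta. PAI3, an isomerase of tryptophan synthesis, had the largest delta of the 21 at 0.618 from 9 of 11 against 2 of 10 reads, and did not pass (exact adjusted p = 0.0628).

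Further sites of these 21, none of which passed, are given as examples picked with their values known. RCD1, a regulator of responses to reactive oxygen, had 17 of 29 against 10 of 39 reads (delta 0.330). A site within the bounds of MYC2, the transcription factor of jasmonate signalling, and of the overlapping AT1G32630 had 4 of 12 against 3 of 21 reads (delta 0.190). ABCG14, a transporter of cytokinins, had 8 of 16 against 3 of 20 reads (delta 0.350, 3 reads in WTa), and ABCG12, a transporter of cuticular wax, had 5 of 7 against 4 of 17 reads (delta 0.479, not tested). CIPK23, a kinase that acts on potassium and nitrate uptake, had a delta of 0.206, ACC2, an acetyl-CoA carboxylase of fatty acid synthesis, 0.290, and ATE2F2, an E2F factor of the cell cycle, 0.221. The 4 sites with a negative delta were small in size. They lay in DLAH (-0.0292) and, near the far end of the region, in SYP81 (-0.0172), IOS1 (-0.0621) and HEI10, which acts in meiotic crossover formation (-0.0909).

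In the distal arm, the 8 sites of most negative delta among the 9 that passed included 5 in protein-coding genes. AT1G76580 at 28735847 had 2 of 16 thm1_like reads and 10 of 13 WTa_like reads (delta -0.644, adjusted p = 0.0128, exact test), with only 4 reads in WTa. AT1G76360 at 28643379 had 5 of 32 against 19 of 27 reads (delta -0.547, adjusted p = 0.00183, exact test), and AT1G76140 at 28571179 had 8 of 37 against 15 of 23 reads (delta -0.436, adjusted p = 0.0172, exact test). HB18, a homeodomain-leucine zipper transcription factor, had 5 of 32 against 17 of 31 reads at 26737607 (delta -0.392, adjusted p = 0.0204, exact test). HA9, a plasma membrane proton pump, had 3 of 25 against 12 of 23 reads at 30316422 (delta -0.402, adjusted p = 0.0401, exact test), and this was the only C-to-T site among the lower ones that passed.

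The other 3 lay just outside gene bounds. Position 28085653 was 100 bp from AT1G74750, with 6 of 32 against 19 of 28 reads (delta -0.491, adjusted p = 0.00527, exact test). Position 25350698 was 314 bp from AT1G67635 (delta -0.379, adjusted p = 0.0375, exact test) and position 28967523 was 508 bp from AT1G77100 (delta -0.362, adjusted p = 0.0254, exact test). At each of these 8 sites the thm1_like pool still had reads with the changed base, with the share lowest for HA9, at 3 of 25, and highest at 28967523, at 10 of 42. The highest delta of the arm was that of AT1G73920 (27794291), 0.167 from 8 of 12 against 6 of 12 reads.

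The 14 distal protein-coding sites with a gene symbol had a median delta of -0.219, and 13 were lower in thm1_like. Of these, 7 had a thm1_like index below 0.3 and were listed through WTa_like alone, HB18 and HA9 among them. Among the 13 tested, HB18 and HA9 passed as lower (15.4%), near the 16.1% of the whole arm. The share among all tested nuclear sites was 4.41%. SS2 had 10 of 42 thm1_like reads and 15 of 30 WTa_like reads (delta -0.262). AGL66, a MADS-box factor of pollen, had 11 of 47 against 12 of 22 reads (delta -0.311). BBX21, a B-box factor of light responses, had 11 of 36 against 15 of 35 reads (delta -0.123). The transport proteins ABCG25, which exports abscisic acid, NHX6, a sodium/proton exchanger, and NRT1:2, a nitrate transporter, had deltas of -0.169, -0.129 and -0.0233. The exception was KCS6, an enzyme of the very long chain fatty acids of wax, with 16 of 29 against 9 of 20 reads (delta 0.102), at 25713901 near the start of the arm.

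Outside these regions few sites passed. Over the first 10 Mb, 3 of 119 tested sites did, against 12.6% of all tested nuclear sites. UGT71C4, a glycosyltransferase gene, with 4 reads in WTa, was higher at 2227216 with 21 of 35 against 12 of 51 reads (delta 0.365, adjusted p = 0.0140, exact test). AT1G20760 at 7209518, with 6 of 19 against 13 of 16 reads (delta -0.497, adjusted p = 0.0491, exact test), and the pseudogene AT1G20390 at 7070595, with 4 of 19 against 15 of 22 reads (delta -0.471, adjusted p = 0.0395, exact test), were lower. UGT71C4 was listed through thm1_like alone and AT1G20390 through WTa_like alone, so each had to differ in that direction. AT1G20760 was listed through both pools, and of the 75 tested sites of the first 10 Mb so listed it alone passed. The call of AT1G20760 was lost with a read minimum of 7 (exact adjusted p = 0.0511) and without the deep sites (0.0538). The gene of the clock factor LHY, with the first site of the chromosome, had a delta of 0.0952, and RDR1, an RNA-dependent RNA polymerase, one of 0.0304. CLE43, of the CLE peptide family, had the largest delta of the first 10 Mb at 0.571, from 4 of 7 against 0 of 7 reads, where 0 of 7 reads permits up to 42.9%, and AT1G02660 one of -0.467 from 3 of 9 against 8 of 10 reads; neither was tested. ADT1, an arogenate dehydratase of phenylalanine synthesis, had the lowest nonzero WTa_like index, with 6 of 19 against 1 of 24 reads (delta 0.274). CLE43 and ADT1 were listed through thm1_like alone and had to be higher.

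From 20 to 25 Mb, 3 of 36 tested sites passed, and both directions occurred. The shares were 5.56% higher and 2.78% lower, against 8.2% and 4.41% of all tested nuclear sites. The 2 higher sites were listed through thm1_like alone and the lower one through WTa_like alone, so each had to differ in that direction. Among the 29 tested sites listed through both pools, 0 passed. AT1G53640 at 20022389 had 15 of 25 against 4 of 28 reads (delta 0.457, adjusted p = 0.0126, exact test), and 20523591, at 2063 bp from the lipoxygenase gene LOX1, had 21 of 35 against 2 of 17 reads (delta 0.482, adjusted p = 0.0174, exact test). Position 23942392, where AT1G64450 and AT1G64455 overlap, had 4 of 17 against 28 of 42 reads (delta -0.431, adjusted p = 0.0368, exact test), with 4 reads in WTa.

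Genes could also be grouped by words in their symbols and synonyms. Among all tested nuclear sites 12.6% passed, and with so few members a count of 0 or 1 says little. Kinase words matched 8 sites (4 higher and 4 lower), of which 6 were tested and 0 passed. Transcription factor words matched 5 sites (2 higher and 3 lower), all tested, with HB18 alone passing, as lower. Transporter words matched 5 sites (1 higher and 4 lower), of which 4 were tested and 0 passed, and F-box or ubiquitin words 4 sites (1 higher and 3 lower), all tested, with UBC31 alone passing, as higher. Cytochrome P450 words matched 2 sites, repeat protein words 1 and hypothetical protein words 1 (SYP81, which is a syntaxin), none of which passed by Fisher's exact test. None of the kinase, transporter, cytochrome P450, repeat protein or hypothetical sites had an unadjusted p under 0.05. The words missed members of these families, among them PUB17, ABCG14, ABCG25 and the factors MYC2, LHY, AGL66 and BBX21. The counts are therefore those of matched words and not of the families. Deltas ran from -0.392 to 0.221 among the sites matched by transcription factor words and from -0.129 to 0.479 among those matched by transporter words.

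The 2 classes of change lay in long unbroken series. The first 63 sites, from 33922 to 5097139, were all G-to-A, and the last 15, from 29247558 to 30349780, were all C-to-T. Between these, 17 C-to-T sites stood among G-to-A sites, 15 of them alone and 2 adjacent. The final change of class came between 29163255 and 29247558, after 46 G-to-A sites in a row that began at 24354035. Of the 15 terminal C-to-T sites, 14 lay in protein-coding genes. On the other chromosomes G-to-A made up 74 of 203 sites of these classes on chromosome 2, 85 of 314 on chromosome 3, 160 of 179 on chromosome 4 and 180 of 298 on chromosome 5.

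Mean delta was below 0 on both sides of that change of class. The 15 terminal C-to-T sites had an average index of 0.280 in thm1_like (SD 0.0894) and 0.461 in WTa_like (SD 0.0833), with a mean delta of -0.180 (SD 0.136) and 13 of 15 lower. The 15 G-to-A sites just before them, from 28354192, had 0.239 in thm1_like (SD 0.0888) and 0.535 in WTa_like (SD 0.126), with a mean delta of -0.295 (SD 0.191) and 14 of 15 lower. The thm1_like index was below 0.3 at 9 of the 15 C-to-T sites and 11 of the 15 G-to-A sites, and the WTa_like index at none. Such sites were listed through WTa_like alone and had to be lower. The difference between the mean deltas was not tested.

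Of the 17 C-to-T sites before the terminal series, 12 had a delta below the mean of the 4 nearest G-to-A sites. In the middle, 10 of them had an average index of 0.306 in thm1_like (SD 0.177) and 0.315 in WTa_like (SD 0.151), with a mean delta of -0.00865 (SD 0.270). The 136 G-to-A sites of the middle had 0.535 in thm1_like (SD 0.127) and 0.265 in WTa_like (SD 0.114), with a mean delta of 0.270 (SD 0.191). Of the 10, 6 were lower in thm1_like and 8 lay below the mean of the 4 nearest G-to-A sites, 5 of them below all 4. However, 6 of the 10 were listed through WTa_like alone, 3 through thm1_like alone and 1 through both. Of the 136 G-to-A sites, 82 were listed through thm1_like alone, 2 through WTa_like alone and 52 through both. A site listed through 1 pool alone had to differ in that direction. The part of this limit in the difference between the classes was not tested. Mean depth at the 10 sites was 37.5 reads in thm1_like and 28.6 in WTa_like, against 27.8 and 26.1 at the G-to-A sites, and the part of depth in the difference was not tested. The 3 single C-to-T sites of the first 10 Mb had a mean delta of -0.344 (SD 0.0889), from as few as 7 reads, and lay in AT1G14910 (0 of 8 against 3 of 7 reads), in AGL65 and in HMGB3, where WTa had 2 reads. All 3 were listed through WTa_like alone, so each had to be lower in thm1_like.

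**Figure D5:**
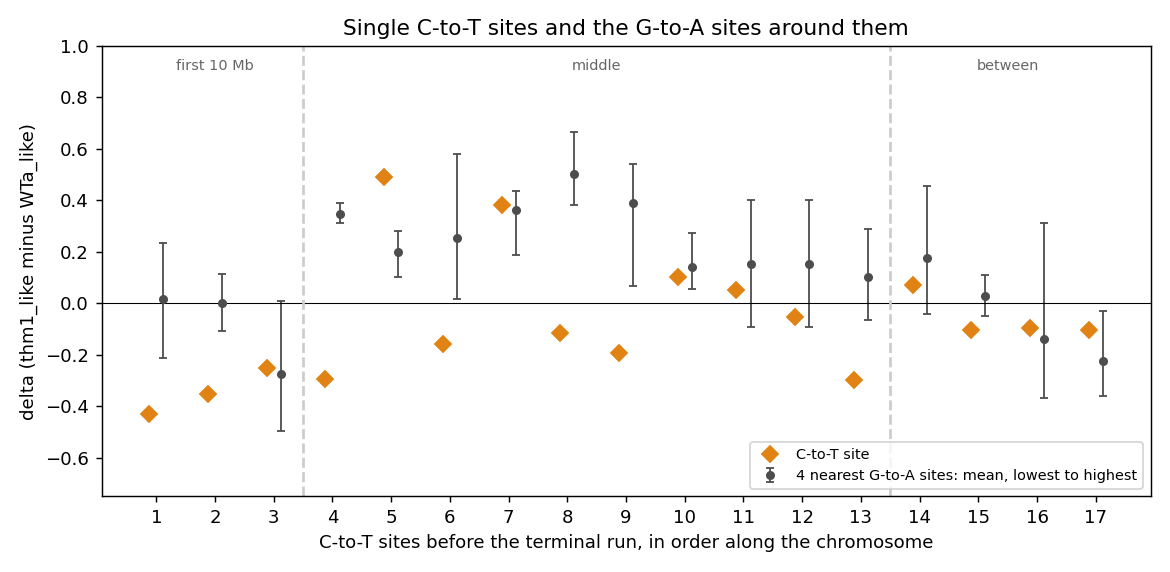
Delta of the 17 C-to-T sites before the terminal series (orange diamonds), beside the mean and the lowest to highest delta of the 2 nearest G-to-A sites on each side (grey). Of the 10 in the middle, 8 lie below the mean of their neighbours, and the 2 that passed the test have deltas of 0.491 and 0.383. Of these 10, 6 were listed through WTa_like alone and had to be lower, and 3 through thm1_like alone and had to be higher.

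Single sites of both classes are given here at short range. In AGO3, 11188456 had 18 of 33 thm1_like reads and 7 of 45 WTa_like reads (delta 0.390, exact adjusted p = 0.00992; 4 reads in WTa), and 11192066 had 14 of 23 against 5 of 18 reads (delta 0.331). The change C11192768T (the WTa base, the position and the other base), 183 bp outside AGO3 and 702 bp from 11192066, had 1 of 19 against 8 of 23 reads (delta -0.295, adjusted p = 0.127, exact test). Farther along, C14091758T had 5 of 21 against 6 of 17 reads (delta -0.115) among 4 G-to-A sites with deltas of 0.383 to 0.667, and C15435234T had 3 of 24 against 8 of 25 reads (delta -0.195) among sites with a mean of 0.389. The 2 that passed went the other way: C11802752T, 1345 bp from MYC2, had 17 of 29 against 2 of 21 reads (delta 0.491, adjusted p = 0.00937, exact test), and C13636745T had 17 of 39 against 1 of 19 reads (delta 0.383, adjusted p = 0.0290, exact test). The 5 changes named here were picked with their values known. Each was listed through 1 pool alone, so the listing limit fixed its sign. C11192768T, C14091758T and C15435234T were listed through WTa_like, and C11802752T and C13636745T through thm1_like. Both AGO3 sites were listed through thm1_like alone and had to be higher.

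In the middle, substitutions of other kinds on the same chromosome were, on average, not higher in thm1_like. The 38 of them had an average index of 0.324 in thm1_like (SD 0.152) and 0.361 in WTa_like (SD 0.146), with a mean delta of -0.0371 (SD 0.208), 11 higher and 26 lower. Of the 36 tested, 4 passed as higher (11.1%) and none as lower, against 8.2% and 4.41% of all tested nuclear sites. The thm1_like index was below 0.3 at 17 of the 38 and the WTa_like index at 7, so the listing limit bears on these signs too. The 21 indels there had a mean delta of -0.0763 (SD 0.241), with the thm1_like index below 0.3 at 10 and the WTa_like index at 5. In the distal arm, the 12 indels had a mean delta of -0.321 (SD 0.243), and only 2 other substitutions were listed. The thm1_like index was below 0.3 at 10 of these 12 indels and the WTa_like index at 1. Most of the distal indels were thus listed through WTa_like alone and had to be lower. The difference between the classes was not tested, because sites of 1 library are not replicates.

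Neighbouring sites also gave a measure of how far single deltas scatter. There were 8 pairs of adjacent sites less than 1 kb apart, 4 of the same sign and 4 of opposite sign, and their deltas differed by 0.0788 to 0.626 (median 0.194). Genes with 2 sites were AGO3, AT1G14250 (-0.0541 and 0.0247), UBP15, a deubiquitinating enzyme of organ growth (-0.0377 and -0.326), and the pseudogenes AT1G32040 (0.382 and 0.213), AT1G36300 (0.186 and 0.406) and AT1G42655 (0.882 and 0.620). The median distance between adjacent sites was 55.7 kb and the longest 644 kb.

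Against the other chromosomes, the sites of chromosome 1 had a mean delta of 0.0611 (SD 0.261, 374 sites) of both signs. The same classes had 0.0782 on chromosome 2 (203 sites), 0.123 on chromosome 3 (314 sites), 0.380 on chromosome 4 (179 sites) and -0.0826 on chromosome 5 (298 sites). The thm1_like index of the middle of chromosome 1, 0.519, lay below the mean of 0.747 over the chromosome 4 sites.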

How the data were processed

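Leaf DNA of 3 libraries was sequenced, and the deposited table gives counts of reads per variant site for both pools, the depth and allele of WTa, the SNP-index of each pool as a fraction, and their difference as a score from -1 to 1, per the file headers. The submitters' processing notes name TAIR10. Aligner, variant caller and filters: not given in the sources used here. Index and delta were recomputed from the counts, and the deposited delta differed by at most 0.01. Fisher's exact test (two-sided, scipy 1.17.1) was run at all 1817 sites covered by 10 or more reads per pool, p-values were adjusted over all of them (Benjamini-Hochberg) and the step was checked on simulated data. Regional means carry SDs over sites and no test.

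Genes came from a RefSeq table of assembly TAIR10.1, and the deposited table names chromosomes by RefSeq accessions. The gene table holds bounds, synonyms and types, not exons, descriptions or transposable elements, so words were sought in symbols and synonyms, and coding effects were not analysed here. No sequence was used. Named sites were the 8 of largest delta that passed in the middle, the 8 most negative that passed in the distal arm, passing sites against their segment's mean, sites near an index of 0 or 1, the extremes of each segment and genes with 2 sites. Sites in genes with a symbol in the middle and distal arm, of which some are printed, were added, as were sites that passed elsewhere. Members, regions and lists were chosen with earlier results of these data known.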

Additional observations from a re-analysis of the deposited data

How the results depend on the processing

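No paired analysis was possible because each group had 1 library. Calls are counts of chromosome 1 sites past an adjusted p of 0.05 by Fisher's exact test, 37 higher and 12 lower in the thm1_like pool. With Bonferroni adjustment 2 higher and 0 lower passed (73 and 31 at an unadjusted p under 0.05). With at least 10 WTa reads the lower calls were 6, and without the deep sites 20 higher and 6 lower passed. Other read minimums, at least 5 WTa reads and adjustment over the same classes of change alone gave 31 to 37 higher and 8 to 12 lower. The mean delta of the middle (0.251) was 0.280 as a median, 0.277 over its central 5 Mb, 0.218 in protein-coding bounds, 0.164 over all classes and 0.120 over sites at 0.3 in both pools, and it turned to -0.00865 over its 10 C-to-T sites. That of the distal arm (-0.224) was -0.180 over C-to-T sites, -0.147 from 20 Mb on and -0.101 over sites at 0.3 in both pools. That of the first 10 Mb (0.00234) was -0.344 over its 3 C-to-T sites and 0.0737 when extended into the middle. The other alternatives tried moved these means by less than their counting intervals. The alternatives without deep sites, in protein-coding bounds and at 0.3 in both pools were chosen after seeing the data. Of 34 named and tested sites, 22 passed, and 21 of these lost the call with Bonferroni adjustment. Depth limits single sites: the middle's mean delta rests on many sites of about 24 reads, at most of which the difference did not pass.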

Other observations

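The only site of the 374 at which WTa carried the alternative base of the reference genome was 22451084, at 1489 bp from GA20OX4, a gene of gibberellin synthesis, with 9 of 42 thm1_like reads and 9 of 29 WTa_like reads without the WTa base (delta -0.0961). A site in GA20OX4 itself, 22453395, had 9 of 19 against 16 of 19 reads (delta -0.368, adjusted p = 0.154, exact test).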
